A study of Neurospora crassa with 112 samples.

Results

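The genes described here are the 150 whose transcript levels followed *con-6* most closely across strains of the filamentous fungus *Neurospora crassa*. They were chosen by their correlation with *con-6* (NCU08769) over the RNA-seq libraries of all strains. RPKM are read counts scaled to gene length and library size. Among the 6787 of 9733 genes that averaged 5 RPKM or more, they had the highest Spearman's rho of log2(RPKM + 1) with *con-6*, which itself is not counted among the 150. Because the correlation with *con-6* selected the members, it is given as a description and carries no test. The correlation coefficient ran from 0.77 for NCU08770 down to 0.4031 for NCU06576, only 15 members lay above 0.5, and the limit fell in a dense part of the ranking. Just inside it were *csy* (NCU04801, 0.4053), NCU05360 (0.4042) and NCU06576, and just outside it were NCU07283 (0.4030), NCU03205 (0.4027) and NCU08291 (0.4024).

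The libraries come from strains that the labels call wild isolates from Louisiana, and their mycelia grew on cellophane laid over a minimal medium (Bird medium) and were collected at 16 h for polyadenylated RNA. The strains are 72 JW strains, 10 D strains and 30 FGSC strains by name. FGSC 2489, labelled in the same way, is the laboratory strain. Each strain name has 1 column of values, so effects of strain, culture and library cannot be told apart. In 4 pairs of columns, each of a D and an FGSC strain, 87.1% to 89.5% of the values were identical, against 0% at most in any other pair. The library totals within each pair were equal to 4 digits, such as 9.329e+06 reads for FGSC 4448 and for D110. The columns of a pair were therefore not taken as separate libraries. Each pair was averaged into 1 library, which left 36 D or FGSC libraries.

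Macroconidia are the wind-borne asexual spores of *N. crassa*, formed by budding and constriction of aerial hyphae that rise from the mycelium. The programme is set off by air, light and starvation, passes through regulators such as *fl* and *acon-3*, and ends with genes that coat, pigment and provision the spore. The con genes were found as transcripts that accumulate during conidiation, and *con-6* encodes a small protein that is abundant in free conidia.

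*con-6* was detected in every library and varied over a 992-fold range. Its level was 23.9 RPKM in the lowest library (D117), 179.7 RPKM in the median library and 23669.6 RPKM in the highest (FGSC 4457). The distribution was strongly skewed: 27 libraries lay under 100 RPKM, 70 between 100 and 1000 RPKM and 11 above 1000 RPKM. The libraries with the most *con-6* after FGSC 4457 were FGSC 4459 (8479 RPKM), FGSC 4469 (7179 RPKM), JW148 (4709 RPKM), JW27 (3673 RPKM), FGSC 4486 (2635 RPKM) and JW193 (2473 RPKM). The fewest *con-6* reads in any library were 65, so the low end was not set by missing reads. In RNA from a whole mycelium, fewer cells of a type and less RNA per cell cannot be told apart, which holds for every level given here.

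**Figure D1:**
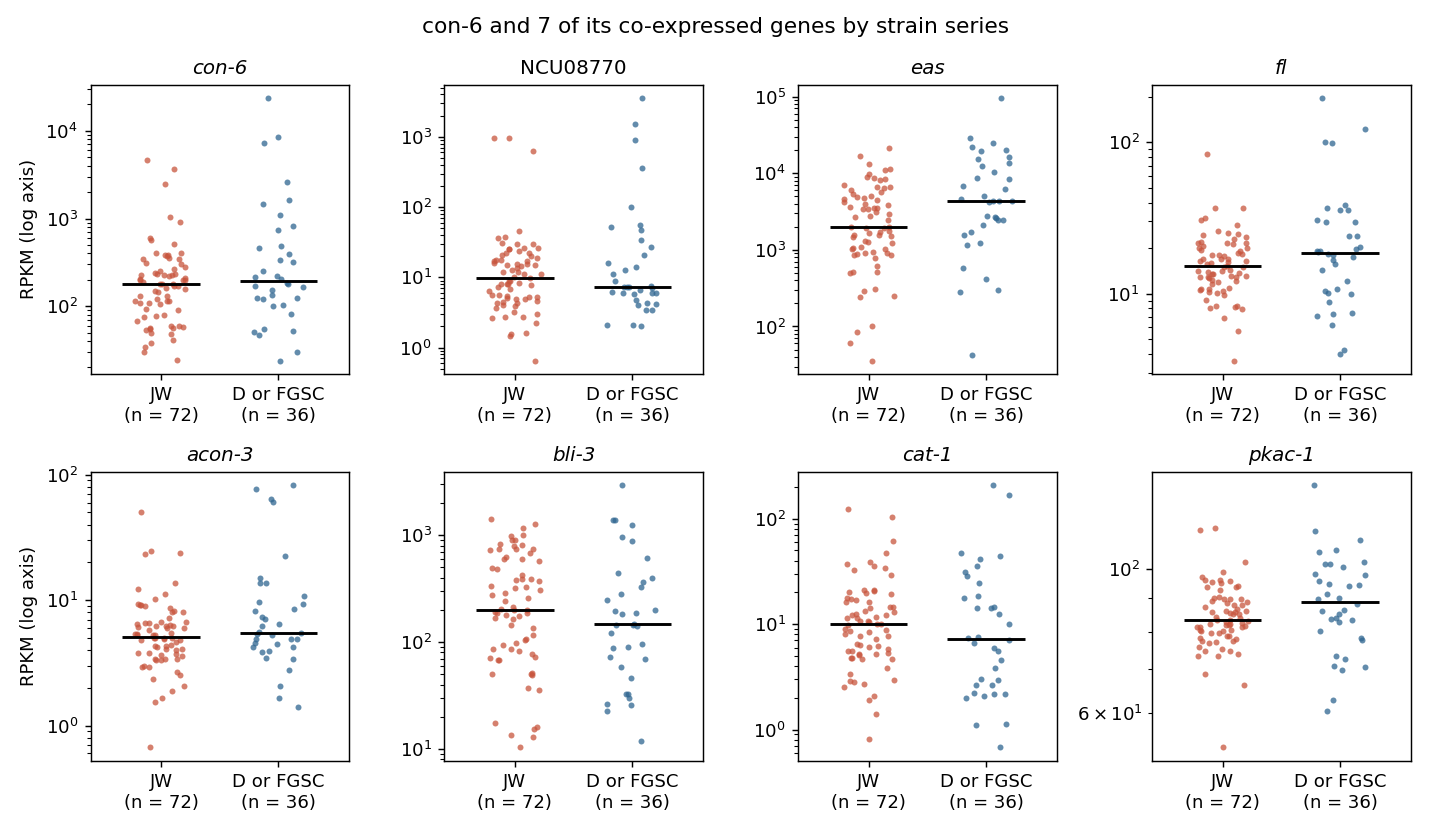
Level of *con-6* and 7 of its co-expressed genes in each library, in RPKM on a log axis that differs between panels, with 72 JW libraries on the left and 36 D or FGSC libraries on the right (line, median). The 2 series overlap in every panel, and for *con-6* a few libraries of each series stand far above the medians of 178.8 (JW) and 194.9 RPKM (D or FGSC).

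The closest partner of *con-6* was the gene next to it. NCU08770 lies beside *con-6* on chromosome III in the NC12 annotation, with no other protein-coding gene between them, and had a rho of 0.77 and a Pearson's r of 0.86 on the log2 scale. Its level was 0.650 RPKM at the lowest (JW240), 8.79 RPKM at the median and 3556 RPKM at the highest (FGSC 4457). A straight-line fit gave it a rise of 0.96 on the log2(RPKM + 1) scale for each log2 unit of *con-6*. The 8 libraries with the most NCU08770 were also the 8 with the most *con-6*, with 100.8 RPKM or more. The ratio of the neighbours was not fixed: NCU08770 stood at 6.04% of the *con-6* level in the median library, at 0.315% in JW240 and at 38.4% in JW193. In JW240 *con-6* was near its median, with 206.2 RPKM, while NCU08770 had 4 reads.

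Among the genes of the conidial surface and interior, *eas* was a member and the other con genes measured were not. *eas* (NCU08457) encodes the hydrophobin whose rodlets make the conidium water-repellent. It ranked 2nd with a rho of 0.58, and it was also the most abundant member and the one with the widest spread (SD 2.07 on the log2 scale). Its level was 35.7 RPKM at the lowest (JW262), 2753 RPKM at the median and 95463 RPKM at the highest (FGSC 4457). In the libraries that followed FGSC 4457 in *con-6*, *eas* had 24742 RPKM in FGSC 4459 and 29137 RPKM in FGSC 4469, but 4703 RPKM in JW148, where it ranked 36th. The plot of levels against *con-6* shows *eas* spread widely at *con-6* levels near the median, and *eas* reached 21014 RPKM in a JW library outside that top group.

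*con-10* (NCU07325), another gene named for conidiation, missed the membership with rank 160 and a rho of 0.40. It was low in most libraries, with a median of 13.1 RPKM, and reached 3932 RPKM in JW193, 2856 RPKM in FGSC 4457 and 1208 RPKM in FGSC 4459. In JW230 it had 2.34 RPKM although *con-6* stood at 1054 RPKM, the 11th highest. Its rho was 0.18 among JW libraries, where it ranked 1022nd, and 0.74 among D or FGSC libraries, where it ranked 45th. Over all libraries *con-10* ranked 21st under Pearson's r, 106th after median centring and 100th after quantile normalization, so its place outside the 150 depended on how the correlation was computed. *con-13* (NCU07324) had a rho of 0.38 but was too weak for the rule, with a median of 0.440 RPKM and a highest level of 135.3 RPKM in FGSC 4457.

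**Figure D2:**
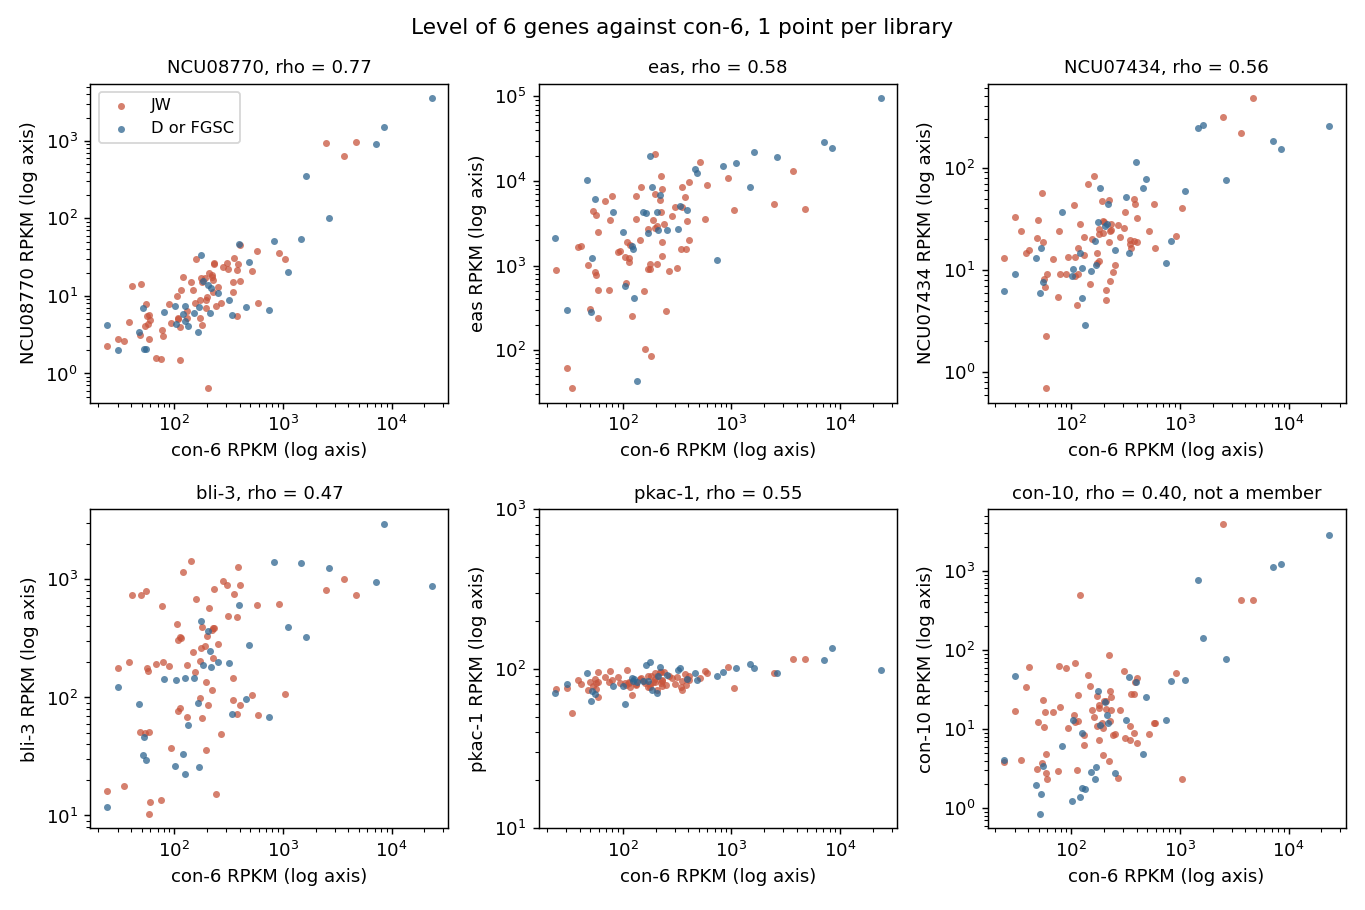
Level of 5 members and of *con-10*, which is not a member, against the level of *con-6*, with 1 point per library and both axes in RPKM on log scales. NCU08770 rises with *con-6* but scatters around it, with its lowest level in JW240, where *con-6* is near its median. *pkac-1* moves only between 53 and 134.7 RPKM, and *con-10* leaves its low range mainly in the libraries with the most *con-6*.

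Of the 13 conidiation regulators measured, *fl* and *acon-3* were members. *fl* (NCU08726) encodes a zinc-cluster transcription factor that is needed for macroconidia. It had a rho of 0.44 and a level of 3.61 RPKM at the lowest, 16.3 RPKM at the median and 195.9 RPKM at the highest (FGSC 4457). *acon-3* (NCU07617), which is needed for the major constrictions that separate conidia, had a rho of 0.48 and 0.668, 5.30 and 83.1 RPKM at the lowest, median and highest library (FGSC 4469). Both were high in the same places: FGSC 4457, 4459, 4469 and 4468 and JW27 were the 5 highest libraries for *acon-3* and for *fl*. Their rho with each other was 0.67, above that of either with *con-6*, and *fl* had a rho of 0.73 with *eas*.

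The other 11 regulators had lower values. *csp-2* (0.32) and *csp-1* (0.16), which act in the separation of conidia, were highest in FGSC 4457, with 190.9 RPKM and 611.0 RPKM. *rco-3* had a rho of 0.34, *ve-1* of 0.30, *fld* of 0.28, *rco-1* of 0.23, *rca-1* of 0.23, *ada-6* of 0.22, *adv-1* of 0.08, *vib-1* of 0.05 and *acon-2* of -0.09. *acon-2* averaged under 5 RPKM and was too weak for the rule. The median of the 13, *acon-2* included, was 0.23, beside 0.08 for the 6786 other genes of the ranking. These values pool both series: *csp-1* had a rho of -0.01 in JW and 0.48 in D or FGSC, and *rca-1* of 0.20 and 0.17.

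Light-responsive genes gathered below the limit, and *bli-3* was the only member of the 16 listed. *bli-3* (NCU07267), a gene induced by blue light, had a rho of 0.47. It ranged more evenly than *con-6*, with 10.3 RPKM at the lowest (JW209), 190.8 RPKM at the median and 2956 RPKM at the highest (FGSC 4459). In JW160, where *con-6* was 143.4 RPKM, *bli-3* reached 1421 RPKM. Of the carotenoid genes, *al-1* (0.37), *cao-2* (0.35), *al-3* (0.33) and *al-2* (0.32) had positive values and *ylo-1* a negative one (-0.09). The photoreceptor genes *cry* (0.38), *phy-1* (0.36), *vvd* (0.32), *phy-2* (0.28) and *nop-1* (0.09) and the white collar genes *wc-1* (0.27) and *wc-2* (0.27) were positive, and none of these was a member. *phy-1*, *phy-2* and *nop-1* averaged under 5 RPKM and were too weak for the rule, but are counted in the list. In this list 15 of 16 rho values were above 0, all but *ylo-1*, with a median of 0.31. Over all genes of the ranking, 65.2% were above 0. These values pool both series. *wc-1* had a rho of 0.05 in JW and 0.67 in D or FGSC, and *al-1* of 0.23 and 0.55. *ylo-1* was less negative in JW, with -0.03 and -0.16.

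The 10 clock-controlled genes behaved differently from each other. *ccg-1* had a rho of 0.35, the others lay between -0.22 (*ccg-14*) and 0.20 (*ccg-4*), and the median was 0.02. None of the 10 was a member, although *eas*, described above as a conidial gene, is also known as *ccg-2*. *ccg-4* and *ccg-9* averaged under 5 RPKM and were too weak for the rule.

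*cat-1* (NCU08791), a catalase abundant in conidia, was the only member among 9 genes for reactive oxygen. It had a rho of 0.41, just above the limit. Its level was 0.676 RPKM at the lowest (D116), 9.36 RPKM at the median and 209.6 RPKM at the highest (FGSC 4457). FGSC 4459 held 166.6 RPKM, JW160 122.8 RPKM and JW193 103.3 RPKM. The rho of *cat-1* was 0.16 among JW libraries and 0.78 among D or FGSC libraries. *cat-2* had a rho of 0.33 over all libraries and *cat-4* of 0.25, whereas *cat-3*, the catalase of growing hyphae, stood at -0.05 and the superoxide dismutase genes *sod-1* and *sod-2* at 0.00 and 0.05.

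Of 8 genes for reserves and heat stress, *tre-2* (NCU04221), a trehalase gene, was a member with a rho of 0.47. Trehalose is a reserve sugar of the spore. *tre-2* moved little, between 43.5 RPKM (JW262) and 219.2 RPKM (FGSC 4469) around a median of 105.4 RPKM. *hsp98* had a rho of 0.33, *gnn* of 0.18, and *tre-1*, *gsn*, *hsp30*, *hsp70-1* and *hsp80* lay between -0.07 and 0.03.

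**Figure D3:**
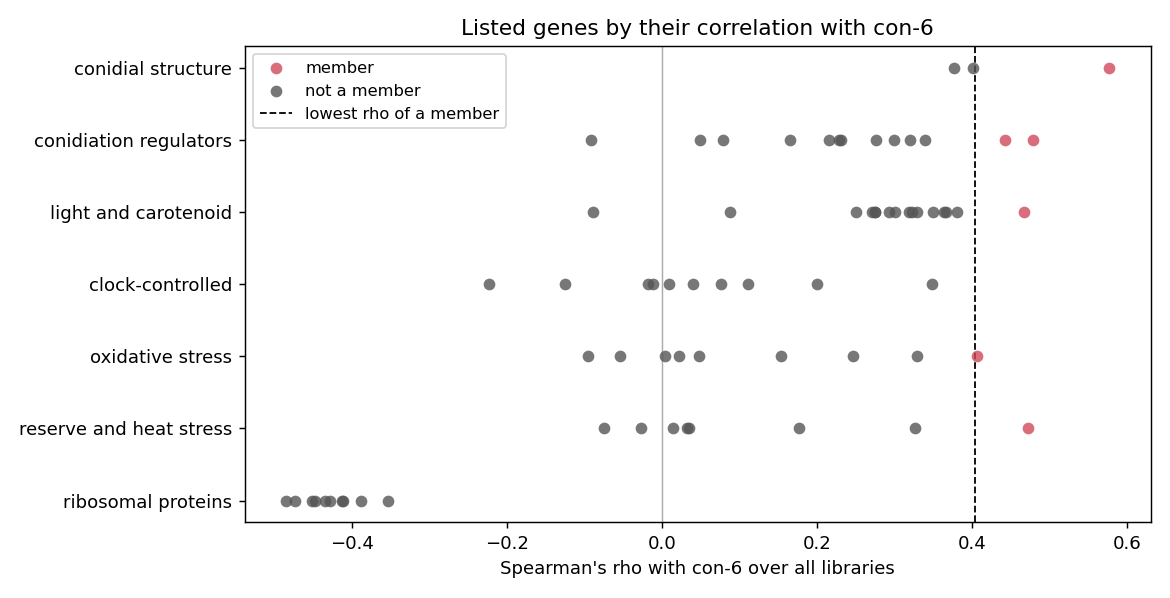
Spearman's rho with *con-6* over all libraries (x axis) for every listed gene other than *con-6*, in 7 lists (rows). Red points are members, grey points are not, and the dashed line marks the lowest rho of a member. The 10 ribosomal protein genes lie between -0.48 and -0.35, and most light and carotenoid genes lie between 0.25 and 0.38.

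The members with a symbol included genes with known roles in signalling, which were grouped from the members themselves and not from a list. *pkac-1* (NCU06240), a catalytic subunit of the cAMP-dependent protein kinase, ranked 5th with a rho of 0.55. Its level was 53 RPKM at the lowest (JW262), 85.1 RPKM at the median and 134.7 RPKM at the highest (FGSC 4459), so that it changed by 0.07 on the log2 scale per log2 unit of *con-6*. *pkac-2* (NCU00682), the other catalytic subunit, had a rho of 0.45 and 13.9, 47.3 and 89.2 RPKM at the lowest, median and highest library. The 2 subunits had a rho of 0.44 with each other.

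*camk-4* (NCU09212), a calcium/calmodulin-dependent kinase, had a rho of 0.46 and ranged from 45.8 RPKM (JW262) to 179.4 RPKM (FGSC 4459). The histidine kinase gene *nik-2* (NCU01833, 0.44) ranged from 5.10 to 22.5 RPKM, and *mob-1* (NCU01605, 0.41), whose product binds NDR kinases, from 36.8 to 129.5 RPKM. The serine/threonine kinase genes *stk-33* (NCU05600, 0.49) and *stk-10* (NCU03200, 0.42) ranged from 8.23 to 27.9 RPKM and from 72.6 to 152.0 RPKM. JW262 was the lowest library for *pkac-1*, *camk-4*, *nik-2*, *stk-10*, *tre-2*, *ubi* and *eas*.

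The other named members had varied roles. *ubi* (NCU05995), polyubiquitin, had a rho of 0.47 and was the 2nd most abundant member, with 613.9 RPKM at the lowest (JW262), 1255 RPKM at the median and 4156 RPKM at the highest (JW193). *pep4* (NCU02273, 0.46), a vacuolar aspartic protease, ranged from 286.4 to 966.0 RPKM, and *apg-1* (NCU00188, 0.43), a kinase of autophagy, from 7.30 to 68 RPKM. *gh18-7* (NCU06020, 0.46), of the glycoside hydrolase family that holds the chitinases, ranged from 11.9 to 64.6 RPKM. *nst-5* (NCU00203, 0.47), a sirtuin, ranged from 23.4 to 103.8 RPKM.

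The deadenylase gene *ccr4* (NCU07779, 0.41) had the narrowest spread of any named member, from 46.1 to 89.1 RPKM. *amph-1* (NCU01069, 0.41), of the amphiphysin family, ranged from 65.4 to 217.3 RPKM, *ff-1* (NCU01543, 0.41) from 34.9 to 91.9 RPKM and *ilv-5* (NCU02397, 0.43) from 7.08 to 193.2 RPKM. In all, 23 of the 150 members (15.3%) had a symbol in the annotation, against 14.3% of the 6787 genes.

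Most members near the top of the ranking have no symbol, and their change per log2 unit of *con-6* (slope) varied. Followers with a slope above 0.5 are called steep here and those under 0.2 shallow, and others lay between. NCU07434 (rank 3, 0.56) had 0.696 RPKM at the lowest (JW209), 19.4 RPKM at the median and 481.5 RPKM at the highest (JW148). NCU09049 (0.51) was at or near 0 in many libraries, with 0 in FGSC 2489 and a median of 1.22 RPKM, and rose to 1481 RPKM in FGSC 4457. Both were steep followers that peaked in a library with high *con-6*. NCU09049 also reached 106.7 RPKM in JW160, where *con-6* was 143.4 RPKM. It had only 6.45 RPKM in JW148, which ranked 4th for *con-6*.

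NCU05652 (0.53), NCU08549 (0.51), NCU11901 (0.50) and NCU06651 (0.54) had their highest level in FGSC 4496, at 263.9, 515.2, 82.5 and 2640 RPKM. FGSC 4496 ranked 9th for *con-6* with 1467 RPKM. NCU00838 (0.53), NCU04823 (0.51) and NCU02596 (0.51) were highest in FGSC 4459, at 271.7, 321.7 and 1124 RPKM, beside medians of 17.9, 9.5 and 104.8 RPKM. NCU06255 (0.54) was highest in FGSC 4457 with 93.1 RPKM around a median of 13.2 RPKM.

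The shallow followers had slopes under 0.2. NCU04597 (rank 4, 0.56) lay between 34.5 and 215.4 RPKM, NCU04550 (0.51) between 8.74 and 31.1 RPKM, NCU04808 (0.49) between 5.81 and 29.4 RPKM, NCU08978 (0.49) between 4.41 and 51 RPKM, NCU09288 (0.49) between 29.5 and 89.3 RPKM and NCU05491 (0.49) between 22.9 and 78.7 RPKM. The abundant members NCU11563 and NCU01835 had means of 1068 and 634.8 RPKM and spreads of 0.35 and 0.47 on the log2 scale.

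Over the whole set the members moved far less than *con-6* did. The slope on *con-6*, in log2 units per log2 unit, had a median of 0.13 (5% to 95% of the members, 0.05 to 0.50), beside 0.01 for all genes of the ranking. It was above 0.5 for 9 members (NCU08770, NCU09049, *eas*, NCU07434, NCU06597, *bli-3*, NCU05844, NCU04266 and NCU11641) and under 0.2 for 107. The members with the widest spread were *eas* and NCU08770 (SD 2.07 and 2.0 on the log2 scale), NCU09049 (1.83), *bli-3* (1.82) and NCU06597 (1.63). A spread of 1 or more was found in 29 of the 150 members (19.3%), against 490 of 6787 genes (7.22%). The median spread was 0.45 for members and 0.35 for all genes, and the median of the mean levels was 41.7 RPKM for members and 31.5 RPKM for all genes.

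**Figure D4:**
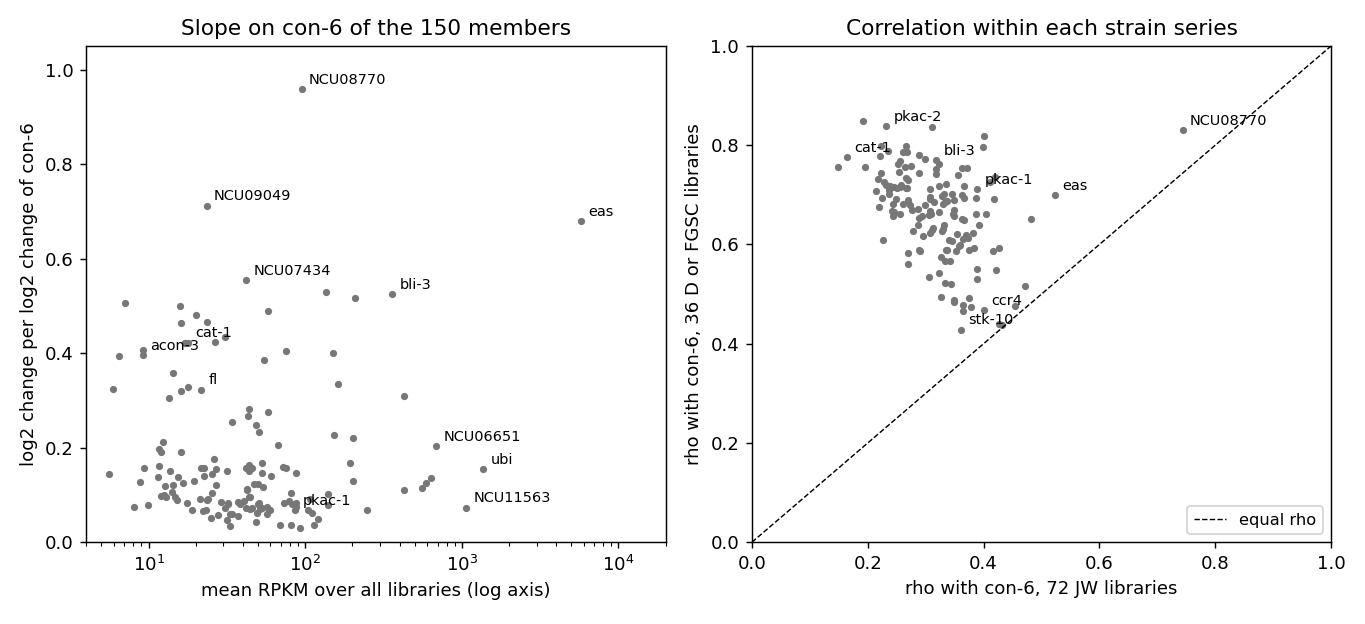
Left, slope on *con-6* of each of the 150 members (log2 change per log2 change of *con-6*) against its mean RPKM on a log axis. Right, Spearman's rho with *con-6* of each member among the 72 JW libraries (x axis) and among the 36 D or FGSC libraries (y axis), where every point lies above the line of equal rho.

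The members also followed each other. The coefficient between 2 members had a median of 0.46 (5% to 95% of the pairs, 0.21 to 0.69) and was below 0 for 0.107% of the pairs, and the first principal component held 49.4% of the variance of their standardised values. Between any 2 genes of the ranking the median rho was 0.04, and the first component held 16.5%. Since a shared correlation with *con-6* makes genes correlate with each other, these values describe the set and are not a separate result.

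A few libraries held most of the peaks. FGSC 4457 gave the highest level of 35 members (23.3%), FGSC 4459 of 31 (20.7%) and FGSC 4496 of 27 (18%), where the same libraries gave the highest level of 5.01%, 2.59% and 4.94% of all genes. FGSC 4457 and 4459 were the top libraries for *con-6*, so the choice of the members favours peaks there, and these shares describe the set. FGSC 4496 had 137 members among their own 20 highest libraries and FGSC 4469 had 134, more than FGSC 4457 (120), although its *con-6* level was the top one. At the other end, 123 members in JW262, 121 in JW209 and 109 or more in each of FGSC 4452, JW156 and D116 were among their own 20 lowest libraries. The library total was 8397290 reads in FGSC 4496. In those 5 libraries, in the same order, it was 21386556, 21952520, 13524784, 23631572 and 4506840 reads. The part of depth in these counts was not tested. The share of all genes with such a library among their own 20 highest or lowest was not computed. The counts therefore describe the set and show nothing particular to the members.

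**Figure D5:**
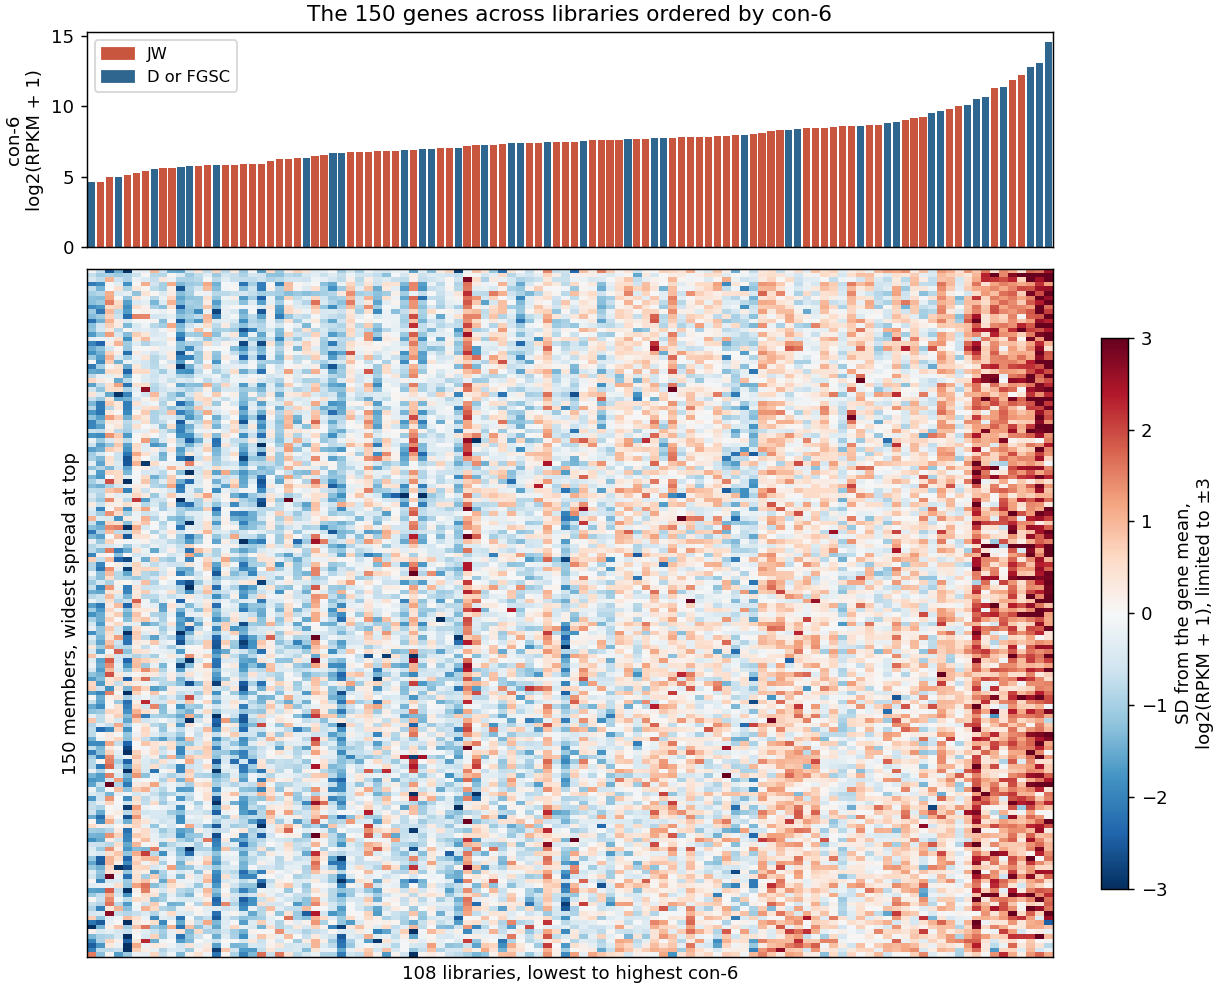
The 150 members (rows, widest spread at the top) in all libraries (columns) ordered from the lowest to the highest *con-6*, whose log2(RPKM + 1) is drawn as bars above, red for JW and blue for D or FGSC. Colour gives the distance of a value from the gene mean in SD of log2(RPKM + 1), and the high values gather in the columns at the right edge and in single columns such as JW160.

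In some libraries *con-6* and its followers parted. JW160 ranked 66th for *con-6* (143.4 RPKM), but 97 members were among their own 20 highest libraries there and the median rank of the members was 12. JW160 stands apart more widely, since it gave the highest level of 432 of the 6787 genes (6.37%). JW70 ranked 106th for *con-6* (30.3 RPKM) with a median member rank of 32, and 49 members were among their 20 highest libraries. JW70 gave the highest level of 146 of the 6787 genes (2.15%). It held NCU09049 at 10.7 RPKM (rank 11) and *cat-1* at 35.2 RPKM (rank 13), but *eas* at 61.4 RPKM (rank 106). JW218 (*con-6* rank 103, median member rank 38) and JW224 (83 and 29) were of the same kind, and JW224 gave the highest level of 288 genes (4.24%). The median rank of all genes in these libraries was not computed, so the member ranks and counts are only a description. JW230 went the other way: it ranked 11th for *con-6*, while the median member ranked 63rd.

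The link to *con-6* was looser among JW libraries than among D or FGSC libraries. All 150 members had a positive rho in both series, with a median of 0.32 in JW (0.15 to 0.74) and 0.68 in D or FGSC (0.43 to 0.85). Over all genes the medians were 0.03 in JW and 0.16 in D or FGSC. Each of the 150 members had a lower rho in JW than in D or FGSC, which was so for 64.8% of all genes. The looser link in JW was not particular to the members. Over all genes, 5% to 95% of the rho values ran from -0.22 to 0.26 in JW and from -0.50 to 0.61 in D or FGSC. The median of the 10 ribosomal protein genes was -0.30 in JW and -0.68 in D or FGSC. The spread of *con-6* itself was 1.48 in JW and 2.27 in D or FGSC (SD on the log2 scale), and its part in the lower rho of the JW libraries was not tested.

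Members chosen in 1 series alone can be described in the libraries that did not choose them. The 150 genes with the highest rho in JW had a median rho of 0.51 in D or FGSC, where all genes had 0.16, and 149 were positive, against 66.9% of all genes. The 150 genes with the highest rho in D or FGSC had a median of 0.22 in JW, where all genes had 0.03, and 149 were positive, against 59.3% of all genes. The genes of each list share their correlation with *con-6*, so these counts are not independent and describe the lists. The filter of 5 RPKM also used the libraries of both series. The 2 lists shared 30 genes, 20% of each. Of these 30 genes 29 were among the 150 members, including NCU08770, *eas*, NCU07434, NCU04597, *pkac-1*, *stk-33*, *ubi*, *bli-3* and *ilv-5*.

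The genes that ran most strongly against *con-6* were highly expressed. All 10 ribosomal protein genes with a crp name or synonym in the annotation had a negative rho, from -0.48 (*crp-4*) to -0.35 (*crp-7*), with a median of -0.43, while 65.2% of all genes were positive. They remained negative under each way of computing the correlation that was tried. *crp-4* (NCU04331) was among the 5 most negative genes, beside NCU07829 (-0.50), NCU01948 (-0.50), NCU06047 (-0.49) and NCU06431 (-0.48). Their levels were narrow: *crp-4* had 1125 RPKM at the lowest (JW160), 2346 RPKM at the median and 3471 RPKM at the highest (FGSC 2489). All 5 were lowest in JW160. The median of the 10 ribosomal protein genes was -0.38 after median centring of the libraries and -0.33 after quantile normalization.

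Position on the chromosome, which the choice did not use, could be read for 146 of the 151 genes counting *con-6*. There were 4 pairs of direct neighbours: *con-6* and NCU08770, *fl* and NCU08727, NCU04597 and NCU04598, and NCU00434 and NCU00435. How many pairs a random set of as many genes would hold was not computed, so the count is only a description. NCU08727, beside *fl* on chromosome II, had a rho of 0.45 with *con-6* and of 0.58 with *fl*, with a median of 2.72 RPKM and 195.7 RPKM in FGSC 4457. With 1 other gene allowed between, 4 more pairs appeared. The tightest was *eas* with NCU08455, also on chromosome II, whose rho with each other was 0.84. NCU08455 had 3.43 RPKM at the lowest, 35.6 RPKM at the median and 174.6 RPKM in FGSC 4457, while NCU08456, which lies between them, had a rho of 0.06 with *con-6*. *nik-2* and NCU01835 had a rho of 0.76 with each other. The remaining pairs were looser, with 0.37 for NCU04597 and NCU04598 and 0.47 for NCU00434 and NCU00435. NCU07889 and NCU11352 had 0.36, and NCU03675 and NCU03678 had 0.56. The median between any 2 members was 0.46.

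The members lay on each of the chromosomes, from 1.65% of the genes of the ranking on chromosome V to 3.21% on chromosome III. Their coding length had a median of 1329 bases, beside 1350 bases for all genes. Several of the steepest followers were short, such as NCU08770 (282 bases, as in *con-6*), NCU11641 (279 bases), NCU06597 (294 bases) and *eas* (327 bases).

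The labels allow 1 comparison, JW strains against D or FGSC strains. The choice did not use these groups, but it did use the levels of the members in both. *con-6* averaged 7.45 ± 1.48 in JW and 8.16 ± 2.27 in D or FGSC on the log2(RPKM + 1) scale (SD, n = 72 and 36), a difference of -0.71 (SE 0.36). It did not pass the test (adjusted p = 0.263, limma with Benjamini-Hochberg adjustment over 7985 genes), and a two-sided permutation test of *con-6* alone gave p = 0.0543. The medians were 178.8 RPKM in JW against 194.9 RPKM in D or FGSC, and 4 of 72 JW libraries and 7 of 36 D or FGSC libraries were above 1000 RPKM. Without FGSC 4457 the difference was -0.53.

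*eas* was lower in JW by the largest margin of any member, at 10.92 ± 1.90 in JW and 11.97 ± 2.23 in D or FGSC (difference -1.05, SE 0.41), and did not pass (adjusted p = 0.131, limma). NCU08770 differed by -0.49 (SE 0.40, adjusted p = 0.533, limma). Its difference was -0.27 without FGSC 4457 (adjusted p = 0.742), -0.94 with voom on recovered reads (adjusted p = 0.287) and -1.20 with the log2 library total as a covariate (adjusted p = 0.152), and it passed the test in none of these limma fits. *acon-3* differed by -0.44 (adjusted p = 0.199) and *fl* by -0.33 (adjusted p = 0.290), while *bli-3* was 0.27 higher (adjusted p = 0.730) and *ilv-5* 0.40 higher (adjusted p = 0.222).

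Of the 150 members 1 passed the test, beside 2.24% of the 7985 genes tested in either direction and 1.08% that were lower in JW. It was NCU09980, with a rho of 0.42, which fell in JW to 4.90 ± 0.20, against 5.09 ± 0.25 in D or FGSC (difference -0.19, SE 0.05, adjusted p = 0.012, limma). Its level in JW was 19.7 RPKM at the lowest, 28.6 RPKM at the median and 46 RPKM at the highest, and in D or FGSC 22.8, 32.6 and 50.9 RPKM, so the 2 series overlapped widely. The count of 1 in 150 (0.667%) did not exceed the background. Differences lay below 0 for 103 of the 150 members (68.7%) and for 51% of all genes, and their median was -0.04 in members and 0.00 in all genes. The members' median was -0.02 without FGSC 4457, -0.08 with voom and -0.11 with the log2 library total as a covariate. The members move together, so these 150 values are not independent. The choice pooled both series and *con-6* averaged lower in JW, so it favours members that are lower in JW. The share below 0 therefore describes the set and is not a separate result.

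Sequencing depth differed between the series. Totals ran from 8366944 to 29804014 reads in JW and from 4174767 to 30748165 reads in D or FGSC, with medians of 19835136 and 11861308. Over all libraries *con-6* had a Pearson's r of 0.19 with the log2 total (permutation p = 0.0529, adjusted p = 0.095 over the 4 correlations of each kind) and a Spearman's rho of 0.13 (p = 0.179, adjusted p = 0.276). Within JW r was 0.13 (p = 0.275, adjusted p = 0.275) and rho 0.06 (p = 0.640, adjusted p = 0.640), and within D or FGSC r was 0.41 (permutation p = 0.0134, adjusted p = 0.0536) and rho 0.35 (p = 0.0390, adjusted p = 0.156). Without the 2 libraries farthest from the median total r was 0.18. The rho of a member with the library total had a median of 0.12, beside -0.04 for all genes, and with the total held constant 132 of the 150 members stayed in the set.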

How the data were processed

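Per the deposited table, each value is an RPKM that the authors computed for a gene in a strain, scaled by gene length and library total. The submitters' processing notes name Bowtie 0.12.2. The sources used here give neither the counting tool nor the annotation release, so no coordinates are printed. Each of the 112 columns carries the name of 1 strain, and 0 columns were left out. Whole reads recovered from the RPKM steps came out whole within 0.001 for 100% of the 9696 genes above 0, and gave totals and coding lengths. Gene names and order follow NCBI's NC12 annotation, which matched 8914 of 9733 IDs. The comparison of JW with D or FGSC libraries used limma 3.58.1 (R 4.3.3) on log2(RPKM + 1) of genes that averaged 1 RPKM or more, with a trend and a Benjamini-Hochberg limit of 0.05. The fit was tested on simulated data. Permutation tests used 100000 resamples. Python 3.11.15 with pandas 2.3.3 and scipy 1.17.1 did the rest. With 1 culture per strain, p-values measure the spread between strains, which may be partly technical. The members, gene lists and tests were chosen with earlier results of these data known. The genes named are *con-6*, the 20 members with the highest rho, those at the limit, listed genes, members with a symbol, direct neighbours, and the extremes of spread, level and negative rho. NCU08455, NCU09980 and the libraries named were singled out after their values were seen. No row was found for *con-8*, and *lae-1*, *wet-1*, *tps-1*, *gpn* and *ssc1* were not matched.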

Additional observations from a re-analysis of the deposited data

How the results depend on the processing

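Of the 150 members, 70 stayed among the 150 when Pearson's r replaced Spearman's rho, 81 with JW libraries alone and 75 with D and FGSC libraries alone. The other planned choices (filters of 1 and 10 RPKM, each column as its own library, median centring, quantile normalization, the total held constant, and no FGSC 2489, JW168, JW5 and JW7) kept 122 to 144, and 20 members stayed under every planned choice. Added after seeing the data, leaving out FGSC 4457 kept 138 and leaving out FGSC 4457, 4459 and 4469 kept 124. Between JW and D or FGSC, 2.24% of the genes tested were called, against 4.16% with quantile normalization, 0.388% with the log2 total as a covariate, 3.62% with each column as its own library, 3.83% without FGSC 2489, JW168, JW5 and JW7, and 1.35% with voom on recovered reads, and the cause was not tested. Lower in JW were 86 of the 179 calls, and 202 of 332 with quantile normalization. Calls among the members numbered 1, against 2 with a pseudocount of 5 RPKM, with median centring, with quantile normalization and with the total as a covariate, and 3 without those 4 libraries. NCU09980 was called under every alternative, and all calls of members were lower in JW, the direction that the choice of the members favours. The *con-6* difference stayed below 0 and not called, from -1.17 with the total as a covariate to -0.53 without FGSC 4457. Neighbour pairs numbered 4, and 8 with 1 other gene between. No paired analysis was possible because each strain name has 1 column and the numbers given to the samples only count strains within a series. The planned promoter motifs were not run, since no promoter sequence was used here. With 4174767 reads in the shallowest library, members such as NCU09049 and NCU05652, at 0 in some libraries, are the least precise.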
